A study of Mus musculus with 11 samples.

Results

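The epithelium of Vil-Ogt KO mice was compared between ileum and colon. The genes listed by name in both tissue tables were joined, and for each one the log2 level of Vil-Ogt KO colon was subtracted from that of Vil-Ogt KO ileum. Because the tissues were normalized separately, the median difference over all joined genes (-0.12) was taken off, so a centred difference of 0 stands for the typical gene, a positive one for a higher level in ileum and a negative one for a higher level in colon. Of 12675 named genes in the ileum table and 12831 in the colon table, 11866 were in both, and 11859 of them could be compared. The Vil-Ogt KO epithelium contributed 6 of the 11 libraries of the study.

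The study sequenced RNA of intestinal epithelial cells (IECs) from 10-week-old male mice. Vil-Ogt KO mice carry a floxed Ogt gene on a C57BL/6 background and a Cre recombinase driven by the Villin promoter, which deletes Ogt in the intestinal epithelium and leaves it in other cells. Vil-Ogt KO ileum had 3 libraries, Vil-Ogt KO colon 3, WT ileum 2 and WT colon 3, and the same regional difference in WT is given beside that of Vil-Ogt KO. IECs were released by shaking the tissue in PBS with EDTA, a step that also frees lymphocytes lying between the epithelial cells, and RNA of each sample was pooled in equal amounts for the libraries. The number of mice per library, and whether ileum and colon were taken from the same mice, are not given in the sources used here. Levels are FPKM, fragments scaled for transcript length and sequencing depth, and the tables hold 1 value per genotype and tissue. No spread between libraries, error or test can therefore be given for any value below, the depth of single libraries is unknown, and every regional difference is a description of these values. In such bulk RNA, fewer cells of a type and less RNA per cell cannot be told apart.

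Ileum and colon carry related but distinct epithelia. The ileum has villi lined by enterocytes that digest and take up fat, sugar, peptides, bile acids and vitamin B12, with Paneth cells at the crypt base that secrete antimicrobial peptides. The colon has no villi, many goblet cells that make the mucus layer, and colonocytes that move water, salt and bicarbonate and use short-chain fatty acids. OGT, the enzyme encoded by Ogt, attaches a single N-acetylglucosamine sugar to proteins in the nucleus and cytosol.

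Over 4-fold differences were taken as the mark of a regional gene, and list medians are to be read against the median over all genes, which is 0 by the centring. In Vil-Ogt KO, 440 genes were over 4-fold higher in ileum (3.71% of 11859) and 500 were over 4-fold higher in colon (4.22%). In WT, the same counts were 209 (1.76% of 11846) and 367 (3.1%). The ileal share of the genes past the mark was 46.8% in Vil-Ogt KO and 36.3% in WT, and with the tissues centred on ribosomal protein genes it was 46.8% and 20.6%. Most genes were far from this mark: 9322 genes (78.6%) lay within 2-fold between the tissues in Vil-Ogt KO and 9794 (82.7%) in WT. The middle of the distribution was as wide in both genotypes, with an interquartile range of 0.84 in Vil-Ogt KO and 0.83 in WT on the log2 scale, while the standard deviation over genes was 1.20 and 0.995. Ileum and colon levels had a Spearman correlation across genes of 0.901 in Vil-Ogt KO and 0.929 in WT, where genes share the library and are not independent. Many of the genes past the mark were nearly silent in the other tissue: 173 of the 440 ileum genes were under 1 FPKM in Vil-Ogt KO colon, and 277 of the 500 colon genes were under 1 FPKM in Vil-Ogt KO ileum.

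**Figure D1:**
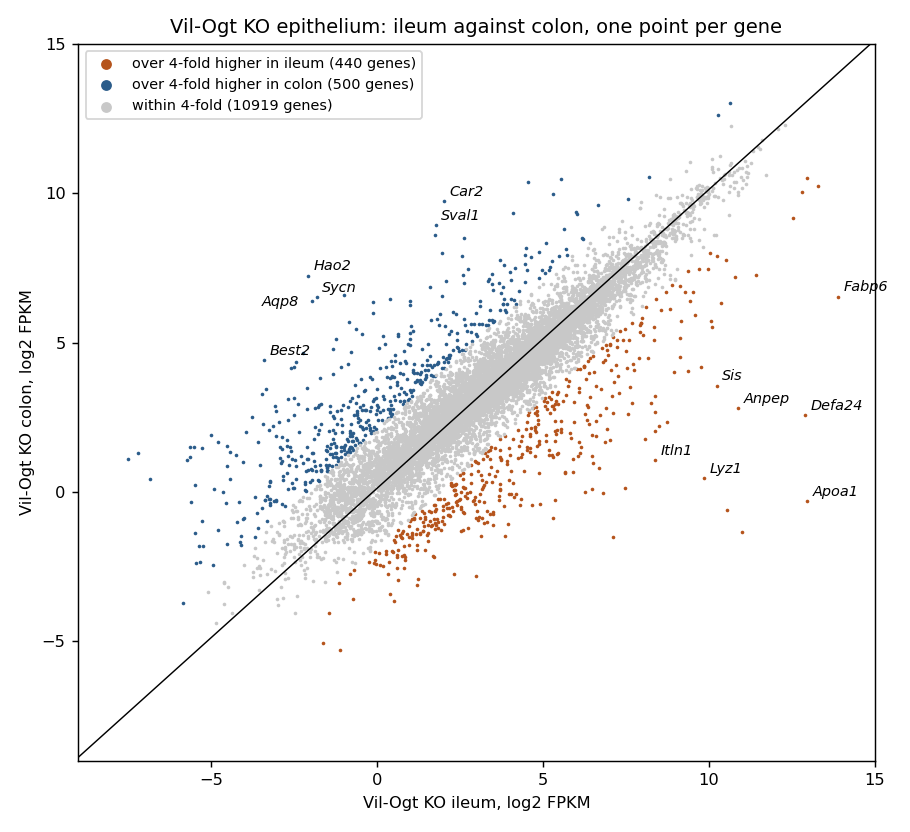
Each point is 1 gene at its log2 FPKM in Vil-Ogt KO ileum (horizontal) and Vil-Ogt KO colon (vertical), the line marks the median difference, and coloured points lie over 4-fold from it. The 440 genes below the band run to Apoa1 and Fabp6 at the far right, and the 500 above it include Aqp8, Hao2 and Car2.

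The labels of tissue and genotype were checked first. Ogt itself (chrX:101640063-101684353, mm10) was at 3.92 FPKM in Vil-Ogt KO ileum and 8.17 FPKM in Vil-Ogt KO colon, against 10.5 FPKM in WT ileum and 32.4 FPKM in WT colon. Its value covers the whole locus, so it does not show which exons were left. The ileal bile acid-binding protein gene Fabp6 was at 15393 FPKM in Vil-Ogt KO ileum and 93.1 FPKM in Vil-Ogt KO colon. Hoxb13, a marker of the distal gut, had 100 FPKM in Vil-Ogt KO colon and 172 FPKM in WT colon and no row in the ileum table, which lists only loci with a usable comparison, so that absence is not a level of 0. Among 15 pan-epithelial genes such as Epcam, Krt8 and Cdx2, none was over 4-fold apart in either genotype, and their median was 0.07 in Vil-Ogt KO and 0.19 in WT. Both tissues of both genotypes were thus rich in epithelial RNA, with summed levels of these genes of 18503 FPKM in Vil-Ogt KO ileum, 17381 in Vil-Ogt KO colon, 14846 in WT ileum and 14855 in WT colon. WT ileum also carried colonocyte genes at high levels, for example 5914 FPKM of Car1, a carbonic anhydrase, which stood at 170 FPKM in Vil-Ogt KO ileum and had no row in the colon table. The 23 colonocyte genes compared summed to 7775 FPKM in WT ileum, 4773 in Vil-Ogt KO ileum and 18552 in WT colon. Some absorption genes were level between the WT tissues, such as Fabp2 (576 and 622 FPKM), though 8 of 20 fat absorption genes were over 4-fold higher in WT ileum. Genes called regional in Vil-Ogt KO alone are read against this WT ileum of 2 libraries. What set its levels was not tested.

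Fat absorption genes held the largest single differences of Vil-Ogt KO epithelium. Of 20 genes compared, 14 were over 4-fold higher in Vil-Ogt KO ileum and 1 in Vil-Ogt KO colon, with a median of 2.86, against 8 and 1 with a median of 1.18 in WT. Apoa1 (chr9:46228395-46231292), an apolipoprotein of chylomicrons and HDL, had the largest difference of all genes, 13.38, with 7968 FPKM in Vil-Ogt KO ileum and 0.812 FPKM in Vil-Ogt KO colon. Its neighbour Apoa4 (chr9:46240843-46243458) followed at 12.48, with 2062 and 0.392 FPKM in these tissues. In WT, both genes were regional too, by 10.33 for Apoa1 and 11.88 for Apoa4, at lower ileal levels of 434 and 191 FPKM. Mttp, which loads lipid onto apolipoprotein B, was at 431 FPKM in Vil-Ogt KO ileum and 5.06 FPKM in Vil-Ogt KO colon, a difference of 6.53 that was 6.41 in WT. The cholesterol uptake transporter Npc1l1 differed by 5.41 and the monoacylglycerol acyltransferase Mogat2 by 4.83.

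Other genes of the same route were regional in Vil-Ogt KO alone by the 4-fold mark, a difference between genotypes that could not be tested. Fabp2, the intestinal fatty acid-binding protein, had 7231 FPKM in Vil-Ogt KO ileum and 1046 FPKM in Vil-Ogt KO colon (2.91), against 576 FPKM in WT ileum and 622 FPKM in WT colon (-0.03). Apoc2, the activator of lipoprotein lipase, had 560 and 119 FPKM in Vil-Ogt KO ileum and colon (2.36), and 5.62 and 5.54 FPKM in WT ileum and colon (0.10). For both genes the Vil-Ogt KO ileum held by far the highest of the 4 levels. Scarb1, a receptor for HDL cholesterol, went the other way, with 0.895 FPKM in Vil-Ogt KO ileum and 13.7 FPKM in Vil-Ogt KO colon (-3.82, and -2.58 in WT). Apoc3, another apolipoprotein, was listed in the ileum table only, at 362 FPKM in Vil-Ogt KO and 15.8 FPKM in WT.

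Promoter sequence of a few of these genes is shown so that the motifs of some transcription factors of the intestine can be seen in it. The sequences are those of RefSeq on GRCm38.p6, from 250 bases before to 50 bases after a start site, and were searched on both strands for CAAAGTCCA, known to be bound by HNF4 factors. They were also searched for CCATAAA, a string that CDX transcription factors bind. The third motif, known for the GATA family of zinc finger proteins, was AGATAAG. A match is a description of the letters only. All windows shown hold a match and come from genes higher in Vil-Ogt KO ileum. Of the 15 largest differences toward Vil-Ogt KO ileum, 13 genes had a window and 3 held a motif. Toward Vil-Ogt KO colon, 9 of 15 had a window and 3 held one. Fabp1, the liver-type fatty acid-binding protein gene, was at 41.4 FPKM in Vil-Ogt KO ileum and 0.824 FPKM in Vil-Ogt KO colon (5.77, and 5.81 in WT). Its window (chr6:71199629-71199928, plus strand) held CCATAAA at 2 places, in capitals, a motif present in 2.75% of all 32851 windows.
Fabp1: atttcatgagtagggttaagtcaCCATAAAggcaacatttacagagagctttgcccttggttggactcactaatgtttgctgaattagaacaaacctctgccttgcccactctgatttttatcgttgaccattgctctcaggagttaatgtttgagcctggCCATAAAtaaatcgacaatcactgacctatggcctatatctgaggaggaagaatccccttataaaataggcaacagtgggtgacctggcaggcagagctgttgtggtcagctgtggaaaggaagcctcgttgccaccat
Abcg8 and Abcg5, the subunit genes of the sterol efflux pump, lie head to head, and were both higher in Vil-Ogt KO ileum, by 5.11 and 4.53. Abcg8 had 50.9 FPKM in Vil-Ogt KO ileum and 1.60 FPKM in Vil-Ogt KO colon, and Abcg5 had 68.6 and 3.23 FPKM there. The windows of the pair overlapped by 209 bases, and the overlap held a single AGATAAG, read on the minus strand in the window of Abcg8 (chr17:84682871-84683170, plus strand) as the capitals CTTATCT. That motif was in 3.04% of all windows.
Abcg8: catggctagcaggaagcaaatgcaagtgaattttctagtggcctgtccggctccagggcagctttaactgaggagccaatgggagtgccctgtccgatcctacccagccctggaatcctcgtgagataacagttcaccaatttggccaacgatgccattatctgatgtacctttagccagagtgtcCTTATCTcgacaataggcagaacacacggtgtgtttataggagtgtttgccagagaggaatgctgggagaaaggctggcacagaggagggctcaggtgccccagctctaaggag

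All 8 sugar genes compared were over 4-fold higher in Vil-Ogt KO ileum, with a median of 3.83, while 2 of the 8 passed that mark in WT (median 1.04). Sis, the sucrase-isomaltase of the brush border, had 1209 FPKM in Vil-Ogt KO ileum and 11.8 FPKM in Vil-Ogt KO colon (6.80), against 61.0 FPKM in WT ileum and 1.40 FPKM in WT colon (5.52). Treh, which splits trehalose, had 77.2 and 1 FPKM in Vil-Ogt KO ileum and colon (6.39), and 3.23 and 0.339 FPKM in WT ileum and colon (3.33). These 2 were the sugar genes that were regional in both genotypes. Slc5a1, the sodium-coupled glucose transporter, had 564 FPKM in Vil-Ogt KO ileum and 36.0 FPKM in Vil-Ogt KO colon (4.09), and in WT the tissues were closer, at 91.1 FPKM in ileum and 62.7 FPKM in colon (0.62). The fructose genes followed the same pattern: Khk, ketohexokinase, differed by 3.57 in Vil-Ogt KO and 0.62 in WT, and the fructose transporter Slc2a5 by 3.26 and 0.46.

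Peptide digestion and amino acid uptake genes leaned to the ileum almost throughout. Of 19 genes compared, 17 were over 4-fold higher in Vil-Ogt KO ileum and none in Vil-Ogt KO colon, with a median of 3.79, and 10 were over 4-fold higher in WT ileum (median 2.37). Anpep, aminopeptidase N, had 1885 FPKM in Vil-Ogt KO ileum and 6.96 FPKM in Vil-Ogt KO colon (8.20, and 7.76 in WT). Slc6a19, a neutral amino acid transporter, had 177 and 1.10 FPKM in these tissues (7.45), and 10.3 and 0.420 FPKM in WT ileum and colon (4.69). The peptide transporter Slc15a1 had 97.0 FPKM in Vil-Ogt KO ileum and 11.7 FPKM in Vil-Ogt KO colon (3.17), whereas WT had the higher level in colon, with 9.13 FPKM in ileum and 22.3 FPKM in colon (-1.21). The exceptions of the list were Mep1b at 1.99 and Mep1a at 0.14, the subunit genes of the meprin proteases.

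Slc3a1 and Slc7a9 encode the heavy and the light subunit of the cystine and dibasic amino acid transporter. Slc3a1 (chr17:85028346-85090302) had 152 FPKM in Vil-Ogt KO ileum and 29.0 FPKM in Vil-Ogt KO colon (2.51, and 1.51 in WT). Slc7a9 had 171 and 34.1 FPKM in Vil-Ogt KO ileum and colon (2.45), and 61.8 and 3.20 FPKM in WT ileum and colon (4.35). The windows of Slc3a1 (chr17:85028097-85028396, plus strand) and of Treh (chr9:44672983-44673282, plus strand) each held 1 match to CAAAGTCCA, in capitals and on the minus strand (as TGGACTTTG) in Treh. It began 39 bases before the start of Slc3a1 and 71 bases before that of Treh.
Slc3a1: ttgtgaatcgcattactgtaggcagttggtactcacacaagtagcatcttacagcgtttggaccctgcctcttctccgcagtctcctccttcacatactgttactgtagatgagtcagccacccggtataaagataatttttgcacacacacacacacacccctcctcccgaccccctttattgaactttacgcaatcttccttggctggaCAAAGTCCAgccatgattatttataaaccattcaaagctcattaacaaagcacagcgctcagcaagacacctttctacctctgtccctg
Treh: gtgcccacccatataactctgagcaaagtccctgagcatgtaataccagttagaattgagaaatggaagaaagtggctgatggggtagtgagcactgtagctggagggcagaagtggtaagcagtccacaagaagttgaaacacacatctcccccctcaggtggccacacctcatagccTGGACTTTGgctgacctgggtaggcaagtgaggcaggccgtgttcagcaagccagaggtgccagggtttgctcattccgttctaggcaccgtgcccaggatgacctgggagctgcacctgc
Windows were found for 8704 of the joined genes, and CAAAGTCCA was in the windows of 46 of them (0.528%), of 10 of the 306 genes with a window among those over 4-fold higher in Vil-Ogt KO ileum (3.27%) and of 3 of 342 among those over 4-fold higher in Vil-Ogt KO colon (0.877%). It was in 0.475% of all 32851 windows. Of genes with a window, 2.22% of the joined, 4.58% of these ileum and 2.63% of these colon genes held CCATAAA. For AGATAAG the shares were 2.38%, 5.88% and 2.92% in the same order. These shares are counts of a string over genes that share neighbours and families.

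Bile acid and vitamin B12 handling, the specialities of the ileum, gave 7 of 12 genes over 4-fold higher in Vil-Ogt KO ileum and 1 in Vil-Ogt KO colon (median 2.66), and 5 of 11 and 1 in WT (median 1.56). Fabp6 differed by 7.49 in Vil-Ogt KO and 8.56 in WT, where it was at 4153 FPKM in ileum and 11.6 FPKM in colon. Fgf15, the hormone that ileal cells release on bile acid uptake, had 30.3 FPKM in Vil-Ogt KO ileum and 0.763 FPKM in Vil-Ogt KO colon (5.43). In WT it was at 1.80 FPKM in ileum and listed at 0 in colon. The uptake transporter Slc10a2 was less regional than its partners, with 124 FPKM in Vil-Ogt KO ileum and 53.1 FPKM in Vil-Ogt KO colon (1.35, and 0.95 in WT). The receptor of vitamin B12 bound to intrinsic factor consists of cubilin and amnionless, and Cubn (2.83) and Amn (3.65) were both higher in Vil-Ogt KO ileum. Abcc3, an exporter of conjugated bile acids, was higher in Vil-Ogt KO colon, with 22.0 FPKM in ileum and 132 FPKM in colon (-2.46).

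Paneth cell genes were ileal in both genotypes, with a median over the 9 genes compared in both of 5.34 in Vil-Ogt KO and 5.98 in WT. Gene by gene, 8 of the 9 had the difference of larger size in Vil-Ogt KO, so the order of the medians does not hold for most members. Of these 9, 7 were over 4-fold higher in ileum and 1 in colon in Vil-Ogt KO, and in WT, where Mptx1 could be compared as well, 5 of 10 were higher in ileum and 1 in colon, with a median of 3.98 over the 10. With log2(FPKM + 1) the median in Vil-Ogt KO was 3.90. The alpha-defensins Defa24 (10.46) and Defa20 (11.27) had 7697 and 1510 FPKM in Vil-Ogt KO ileum, against 5.94 and 0.664 FPKM in Vil-Ogt KO colon. In WT, Defa24 (8.88) and Defa20 (9.02) had 719 and 110 FPKM in ileum, against 1.61 and 0.224 FPKM in colon. Defensin genes are near-identical copies, so the split of reads among them is uncertain. Lyz1, Paneth cell lysozyme, had 936 FPKM in Vil-Ogt KO ileum and 1.39 FPKM in Vil-Ogt KO colon (9.52), and the lectin Itln1 had 333 and 2.10 FPKM (7.43). In WT ileum and colon, Lyz1 had 55.3 and 0.493 FPKM (6.89), and Itln1 had 83.9 and 1.40 FPKM (5.98). A further 10 members were in the ileum table only, among them Defa22 at 734 FPKM in Vil-Ogt KO and 52.7 FPKM in WT, and Mptx2 at 118 and 5.78 FPKM. The related pentraxin gene Mptx1 ran opposite: it was listed at 0 in Vil-Ogt KO ileum, with 52.0 FPKM in Vil-Ogt KO colon, and had 3.68 FPKM in WT ileum and 648 FPKM in WT colon.

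The antimicrobial lectins were split. Reg3b had 10016 FPKM in Vil-Ogt KO ileum and 1209 FPKM in Vil-Ogt KO colon (3.17), against 27175 FPKM in WT ileum and 208 FPKM in WT colon (7.11), and Reg3g was at 3.49 in Vil-Ogt KO and 7.61 in WT. For these 2 related genes the regional step was thus smaller in Vil-Ogt KO. Reg4, a lectin of deep crypt secretory and goblet-type cells, had 23.3 FPKM in Vil-Ogt KO ileum and 1323 FPKM in Vil-Ogt KO colon (-5.71), whereas WT ileum and colon were close, at 272 and 276 FPKM (0.06).

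On the colonic side, the colonocyte list had 12 of 23 genes over 4-fold higher in Vil-Ogt KO colon and 1 in Vil-Ogt KO ileum, with a median of -2.25, against 4 and 1 with a median of -1.18 in WT. Water and bicarbonate genes led. Aqp8 (chr7:123462293-123468003), a water channel of surface colonocytes, had 0.257 FPKM in Vil-Ogt KO ileum and 85.0 FPKM in Vil-Ogt KO colon (-8.25), against 70.5 FPKM in WT ileum and 182 FPKM in WT colon (-1.29). Car2 (chr3:14886276-14900770), a cytosolic carbonic anhydrase, had 4.03 and 855 FPKM in Vil-Ogt KO ileum and colon (-7.61), and 176 and 739 FPKM in WT ileum and colon (-1.99). For both genes Vil-Ogt KO ileum was the lowest of the 4 levels, and WT ileum lay between it and the colons. With only the loci of the same coordinates in both tables, the median of this list in Vil-Ogt KO was -1.41.

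The cytochrome P450 gene Cyp2c55 showed the same order of levels, with 39.9 FPKM in Vil-Ogt KO ileum and 1017 FPKM in Vil-Ogt KO colon (-4.55), and 545 FPKM in WT ileum and 1314 FPKM in WT colon (-1.19). The carboxylesterase gene Ces1g was at -6.68 in Vil-Ogt KO and -0.64 in WT. Genes that were regional in both genotypes included the sodium-proton exchanger Slc9a3 (-4.54 in Vil-Ogt KO and -3.5 in WT), the water channel Aqp4 (-4.61 and -2.99) and the gamma-glutamyl hydrolase gene Ggh (-6.35 and -5.03). Slc26a3, the chloride-bicarbonate exchanger of the colon, fell short of the mark at -1.85 and -1.10. Guca2b, uroguanylin, was the member higher in ileum, with 1067 FPKM in Vil-Ogt KO ileum and 53.4 FPKM in Vil-Ogt KO colon (4.44, and 2.08 in WT), while its relative Guca2a, guanylin, was at -1.45. Cldn8, a sealing claudin of the distal gut, was the claudin furthest apart, with 1.13 FPKM in Vil-Ogt KO ileum and 37.5 FPKM in Vil-Ogt KO colon (-4.94, and -2.47 in WT), and the other 9 claudins compared lay between -1.45 and 1.21 in Vil-Ogt KO.

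Beyond the lists, the largest differences toward Vil-Ogt KO colon were those of Hao2 (-9.20), Tmem35 (-8.46) and Sycn (-8.23). Hao2, a peroxisomal hydroxyacid oxidase, had 0.237 FPKM in Vil-Ogt KO ileum and 151 FPKM in Vil-Ogt KO colon, and 74.0 FPKM in WT ileum and 265 FPKM in WT colon. Sycn, a protein of secretory granules, had 0.283 and 92.4 FPKM in Vil-Ogt KO ileum and colon, and 14.7 and 734 FPKM in WT ileum and colon. The anion channel gene Best2 (-7.70), the P450 gene Cyp2d34 (-7.45) and the G protein subunit gene Gna14 (-6.79) followed, and the locus that joins the sialyltransferase genes St6galnac4 and St6galnac6 was at -6.73 with 3.39 FPKM in Vil-Ogt KO ileum and 391 FPKM in Vil-Ogt KO colon. Of the 15 named toward colon, Tmem35, Slc16a9, Clec14a, Arhgap20 and Hsd17b14 had under 5 FPKM in Vil-Ogt KO colon.

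Goblet cell genes leaned to the colonic side in Vil-Ogt KO. Of 19 genes compared, 7 were over 4-fold higher in Vil-Ogt KO colon and none in Vil-Ogt KO ileum, with a median of -1.56, while in WT 1 was higher in colon and 3 in ileum, with a median of 0.55. Over loci with the same coordinates in both tables, the median in Vil-Ogt KO was -3.05. Muc2 (chr7:141690339-141754694), the main mucin of intestinal mucus, had 49.5 FPKM in Vil-Ogt KO ileum and 449 FPKM in Vil-Ogt KO colon (-3.06), against 126 FPKM in WT ileum and 125 FPKM in WT colon (0.09). Spink4 had 1252 and 6295 FPKM in Vil-Ogt KO ileum and colon (-2.21), and 1951 and 734 FPKM in WT ileum and colon (1.49). Zg16, a lectin of mucus granules, was at -2.24 in Vil-Ogt KO and 1.70 in WT. In these 3 genes Vil-Ogt KO colon held the highest level and Vil-Ogt KO ileum lay below WT ileum.

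Retnlb, a bactericidal protein of goblet cells, had 1.17 FPKM in Vil-Ogt KO ileum and 30.7 FPKM in Vil-Ogt KO colon (-4.59), and 78.2 FPKM in WT ileum and 56.5 FPKM in WT colon (0.55). Tff3, a trefoil peptide, kept more RNA in ileum, with 1746 FPKM in Vil-Ogt KO ileum and 1342 FPKM in Vil-Ogt KO colon (0.50), and 2574 and 347 FPKM in WT ileum and colon (2.97). The factors that specify secretory and goblet cells, Atoh1 (-1.56) and Spdef (-1.38), leaned to Vil-Ogt KO colon without reaching 4-fold, and were at 0.28 and 0.43 in WT. Among 4 mucin genes, Muc2, Muc4 (-3.42) and Muc20 (-3.76) passed the mark in Vil-Ogt KO and none in WT.

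**Figure D2:**
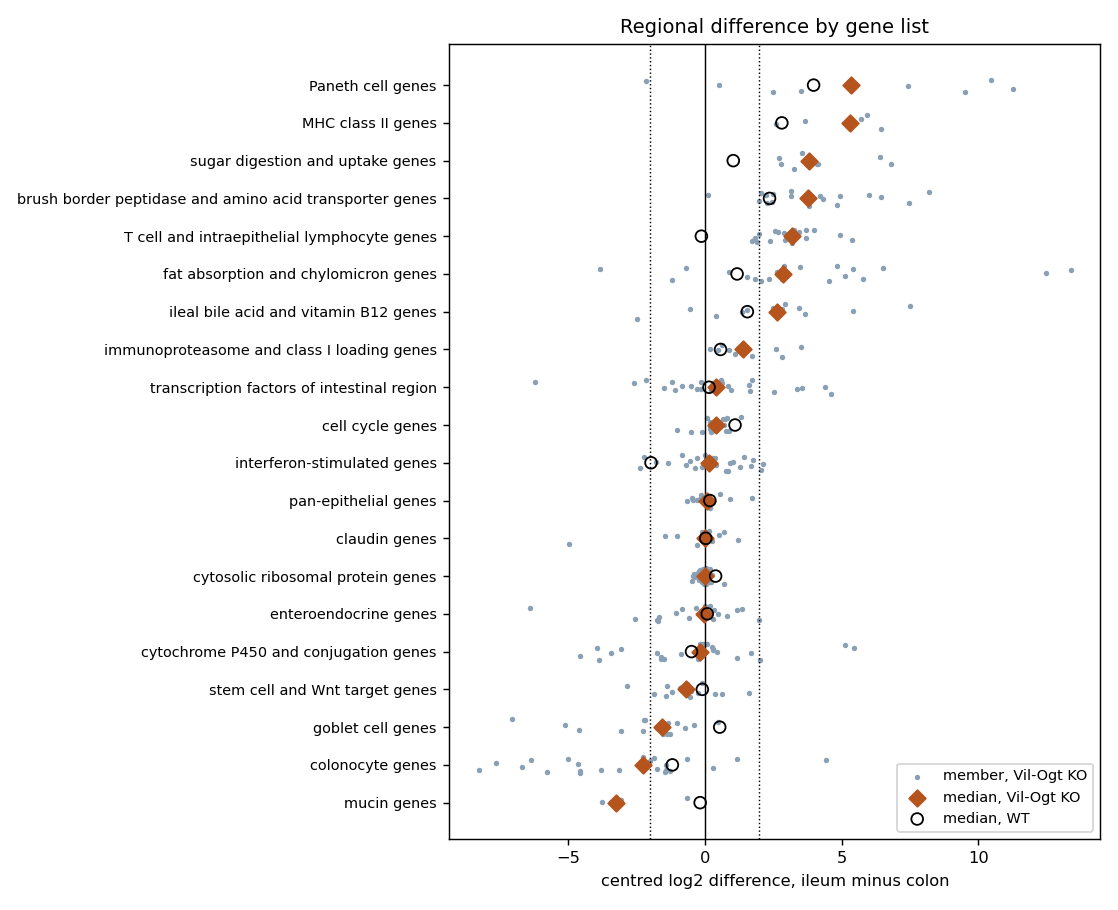
Each grey point is 1 list member at its centred log2 difference, ileum minus colon, in Vil-Ogt KO, with the list median in Vil-Ogt KO (diamond) and in WT (open circle) and dotted lines at 4-fold. Medians of Vil-Ogt KO run from 5.34 for Paneth cell genes, with 5.31 for MHC class II genes next to it, to -3.24 for mucin genes (3.90, 4.90 and -2.06 with log2(FPKM + 1)). The WT median of Paneth cell genes covers 1 more gene than that of Vil-Ogt KO, and the medians of WT lie nearer 0 for most of the absorption lists.

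Transcription factors of intestinal region fell on both sides. Of 27 compared, 5 were over 4-fold higher in Vil-Ogt KO ileum and 3 in Vil-Ogt KO colon, and 2 and 3 in WT. Gata4 (chr14:63198914-63245269), a factor of the small intestine, had 9.38 FPKM in Vil-Ogt KO ileum and 0.486 FPKM in Vil-Ogt KO colon (4.39), against 0.521 FPKM in WT ileum and 0.266 FPKM in WT colon (1.05). Hnf4g (chr3:3508029-3660100), a factor of enterocyte genes, had 86.2 and 9.13 FPKM in Vil-Ogt KO ileum and colon (3.36), and 52.3 and 18.1 FPKM in WT ileum and colon (1.61). Its relative Hnf4a was nearly even, with 320 FPKM in Vil-Ogt KO ileum and 229 FPKM in Vil-Ogt KO colon (0.60). Cdx2, which sets intestinal identity along the whole gut, was even too, with 118 and 141 FPKM in Vil-Ogt KO ileum and colon (-0.14).

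Maf (4.60), Creb3l3 (3.57) and Gata5 (2.54) completed the ileal factors of Vil-Ogt KO. Creb3l3, a factor of lipid metabolism genes, had 141 FPKM in Vil-Ogt KO ileum and 12.9 FPKM in Vil-Ogt KO colon, and 4.69 FPKM in WT ileum and 1.26 FPKM in WT colon. Toward colon stood, among others, Foxa2 (-2.58) and Foxd2, which had 0.429 FPKM in Vil-Ogt KO ileum and 34.5 FPKM in Vil-Ogt KO colon (-6.21), and 4.47 and 33.1 FPKM in WT ileum and colon (-2.81). Of 18 Hox genes, only 6 could be compared, and none passed the mark in Vil-Ogt KO. Over all genes 3.71% passed it toward ileum and 4.22% toward colon, so 6 genes are too few to set against these shares. The posterior genes Hoxa13 and Hoxd13 could not be compared. They had rows in the colon table only, at 5.94 and 2.39 FPKM in Vil-Ogt KO and 12.7 and 17.1 FPKM in WT.

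**Figure D3:**
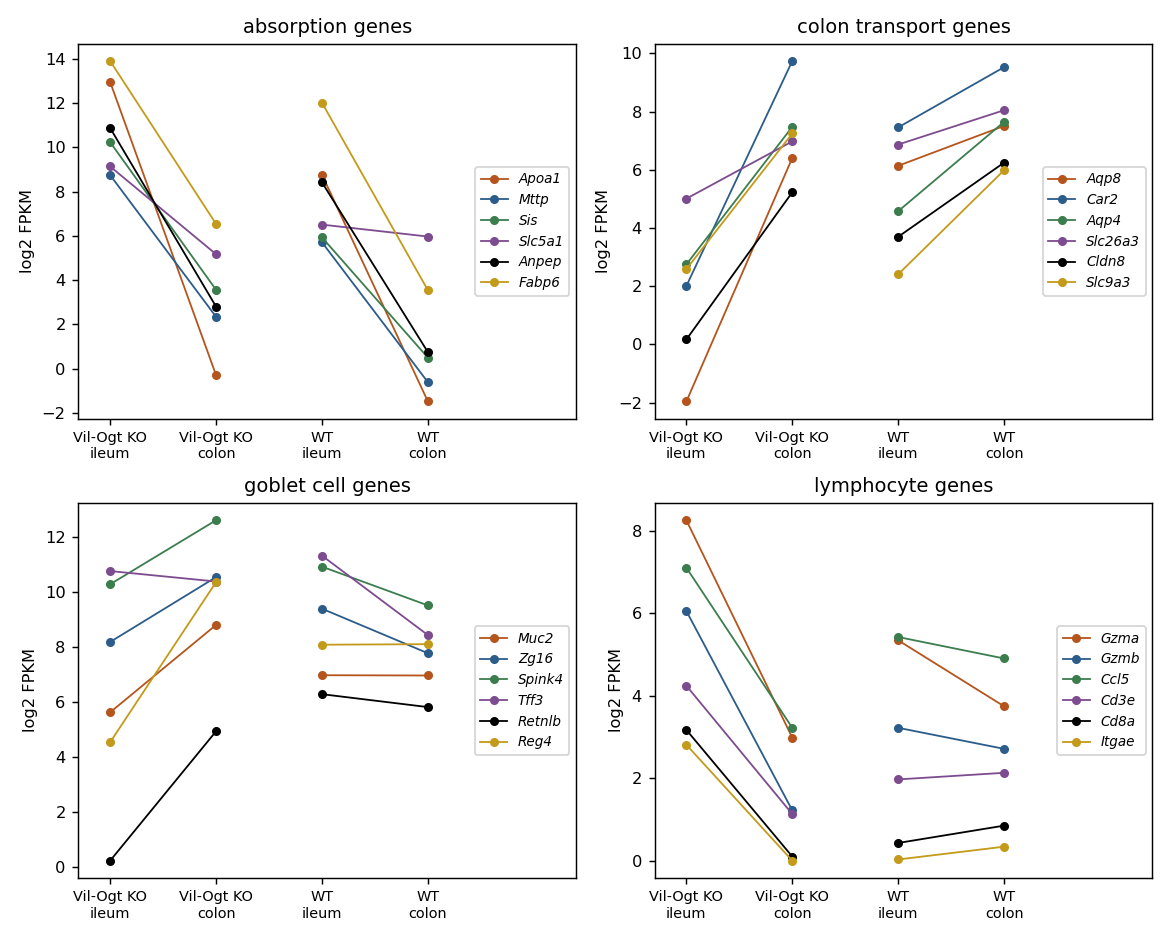
Log2 FPKM in Vil-Ogt KO ileum, Vil-Ogt KO colon, WT ileum and WT colon of 6 genes each for absorption, colon transport, goblet cells and lymphocytes, 1 value per point, with lines that join the tissues of a genotype. Absorption and lymphocyte genes drop steeply from left to right within Vil-Ogt KO, colon transport genes climb, and the lymphocyte genes other than Gzma (1.68) are nearly level in WT.

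Lymphocyte RNA also differed between the tissues of Vil-Ogt KO. Of 19 genes of T cells and intraepithelial lymphocytes, 15 were over 4-fold higher in Vil-Ogt KO ileum and none in Vil-Ogt KO colon, with a median of 3.19 and a range of 1.73 to 5.39, while none of the 19 passed the mark in WT, where the median was -0.12. The summed level of the 19 was 651.6 FPKM in Vil-Ogt KO ileum, 40.6 in Vil-Ogt KO colon, 120.6 in WT ileum and 87.8 in WT colon. Another 5 members of the list, among them Cd4 and Prf1, had rows for ileum only and are not in these counts or sums. Gzma (chr13:113093826-113100981), a granule protease of cytotoxic cells, had 304 FPKM in Vil-Ogt KO ileum and 7.89 FPKM in Vil-Ogt KO colon (5.39), against 40.5 FPKM in WT ileum and 13.4 FPKM in WT colon (1.68). Gzmb had 66.3 and 2.33 FPKM in Vil-Ogt KO ileum and colon (4.95), and 9.32 and 6.54 FPKM in WT ileum and colon (0.59). The T cell receptor subunit gene Cd3e had 18.9 FPKM in Vil-Ogt KO ileum and 2.19 FPKM in Vil-Ogt KO colon (3.23), and 3.92 and 4.38 FPKM in WT ileum and colon (-0.08). With log2(FPKM + 1), which damps low genes, the median of the list in Vil-Ogt KO was 1.65. The list was detected in every tissue with its highest sum in Vil-Ogt KO ileum, and the part of these cells in the other regional differences was not tested.

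MHC class II genes, which present antigen to helper T cells, were regional in both genotypes. All 7 MHC class II genes compared were over 4-fold higher in Vil-Ogt KO ileum (median 5.31) and in WT ileum (median 2.82). H2-Aa, a class II chain, had 365 FPKM in Vil-Ogt KO ileum and 4.59 FPKM in Vil-Ogt KO colon (6.43), against 232 FPKM in WT ileum and 35.5 FPKM in WT colon (2.79). Ciita, the master activator of class II genes, had 7.94 and 0.142 FPKM in Vil-Ogt KO ileum and colon (5.93), and 5.06 and 0.758 FPKM in WT ileum and colon (2.82). For both genes the ileal levels of the genotypes were within 2-fold and Vil-Ogt KO colon was the lowest of the 4. Among 11 immunoproteasome and class I loading genes, Psmb8 (3.51), Nlrc5 (2.82) and Psmb9 (2.60) passed the mark in Vil-Ogt KO and none did in WT, and the other 34 proteasome genes compared lay between -0.13 and 1.40 in Vil-Ogt KO. Myeloid genes were few, with 3 of 7 over 4-fold higher in Vil-Ogt KO ileum and summed levels of 43.2 FPKM in Vil-Ogt KO ileum, 12.5 in Vil-Ogt KO colon, 27.0 in WT ileum and 6.81 in WT colon. Itgam alone held 19.6 FPKM of the sum in WT ileum, and 4.47 FPKM of that in Vil-Ogt KO ileum. A further 6 members had rows for ileum only and are not in these sums.

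Interferon-stimulated genes were even between the tissues of Vil-Ogt KO and colonic in WT. Of 29 genes compared, 2 were over 4-fold higher in Vil-Ogt KO ileum and 2 in Vil-Ogt KO colon (median 0.15), while none was higher in WT ileum and 14 in WT colon (median -1.96). Isg15, a ubiquitin-like protein induced by interferon, had 12 FPKM in Vil-Ogt KO ileum and 15.9 FPKM in Vil-Ogt KO colon (-0.29), against 8.88 FPKM in WT ileum and 65.3 FPKM in WT colon (-2.80). Zbp1, a sensor of Z-form nucleic acids, had 75.1 FPKM in Vil-Ogt KO ileum and 18.5 FPKM in Vil-Ogt KO colon (2.14), and 18.0 and 47.2 FPKM in WT ileum and colon (-1.31). Ifit2 (-2.35) and Mx1 (-2.23) were the members that stayed past the 4-fold mark toward colon in Vil-Ogt KO. In all, 10 of the 29 were negative there, among them Oas1a (-1.78, and -1.62 in WT).

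Several other lists had medians well within the 4-fold mark in Vil-Ogt KO. Over all genes 3.71% passed it toward Vil-Ogt KO ileum and 4.22% toward Vil-Ogt KO colon. None of 29 cell cycle genes passed the mark in Vil-Ogt KO (median 0.40), and 1 did in WT, toward ileum (median 1.11). In Vil-Ogt KO 26 of the 29 were positive, and in WT all 29 were. Ccne1, a G1 cyclin, was among the 3 negative in Vil-Ogt KO, at -0.49 there and 1.06 in WT. Among 16 stem cell and Wnt target genes, Prom1 was the exception, with 13.3 FPKM in Vil-Ogt KO ileum and 102 FPKM in Vil-Ogt KO colon (-2.82, and -0.25 in WT). Enteroendocrine genes had 2 of 22 over 4-fold higher in Vil-Ogt KO colon and none in ileum, and 2 toward colon and 1 toward ileum in WT. As a whole the list leaned to neither tissue in Vil-Ogt KO, with 11 genes positive and 11 negative (median -0.035). Of the 2 past the mark there, Insl5, a hormone of colonic L cells, had 0.559 FPKM in Vil-Ogt KO ileum and 51.3 FPKM in Vil-Ogt KO colon (-6.40, and -5.75 in WT), and Tph1, the enzyme that starts serotonin synthesis, was at -2.54. The 67 cytosolic ribosomal protein genes had a median of 0.00 in Vil-Ogt KO and 0.40 in WT and none passed the mark in either. Rbp2, the retinol-binding protein of enterocytes, had 1098 FPKM in Vil-Ogt KO ileum and 46.5 FPKM in Vil-Ogt KO colon (4.68, and 0.76 in WT), while S100g, the vitamin D-dependent calcium-binding protein, had 3.86 FPKM in Vil-Ogt KO ileum and 93.7 FPKM in Vil-Ogt KO colon (-4.48, and 0.59 in WT). Among 25 cytochrome P450 and conjugation genes, 3 were over 4-fold higher in Vil-Ogt KO ileum, led by Cyp3a25 (5.46) and Cyp2b10 (5.13), and 5 in Vil-Ogt KO colon, led by Cyp2c55, and none passed the mark in WT.

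The regional genes of the genotypes were then matched. Of 435 genes over 4-fold higher in Vil-Ogt KO ileum that could be compared in WT, 128 passed the mark in WT ileum as well, 29.4% of the Vil-Ogt KO genes and 61.2% of the 209 WT genes. On the colonic side 186 genes were shared, 37.3% of 499 in Vil-Ogt KO and 50.8% of 366 in WT. Over all genes, 1.76% passed the mark in WT ileum and 3.1% in WT colon, and 3.71% and 4.22% in Vil-Ogt KO ileum and colon. A gene just short of the mark in 1 genotype counts as not shared. The 435 had a median of 2.89 in Vil-Ogt KO and 1.05 in WT, with 387 larger in size in Vil-Ogt KO, and the 499 had medians of -2.84 and -1.56, with 437 larger in size in Vil-Ogt KO. Since these genes were picked for their Vil-Ogt KO difference, the reverse was taken too: the 209 WT ileum genes had a median of 2.64 in Vil-Ogt KO and 2.97 in WT, and the 366 WT colon genes had medians of -2.05 and -2.66.

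**Figure D4:**
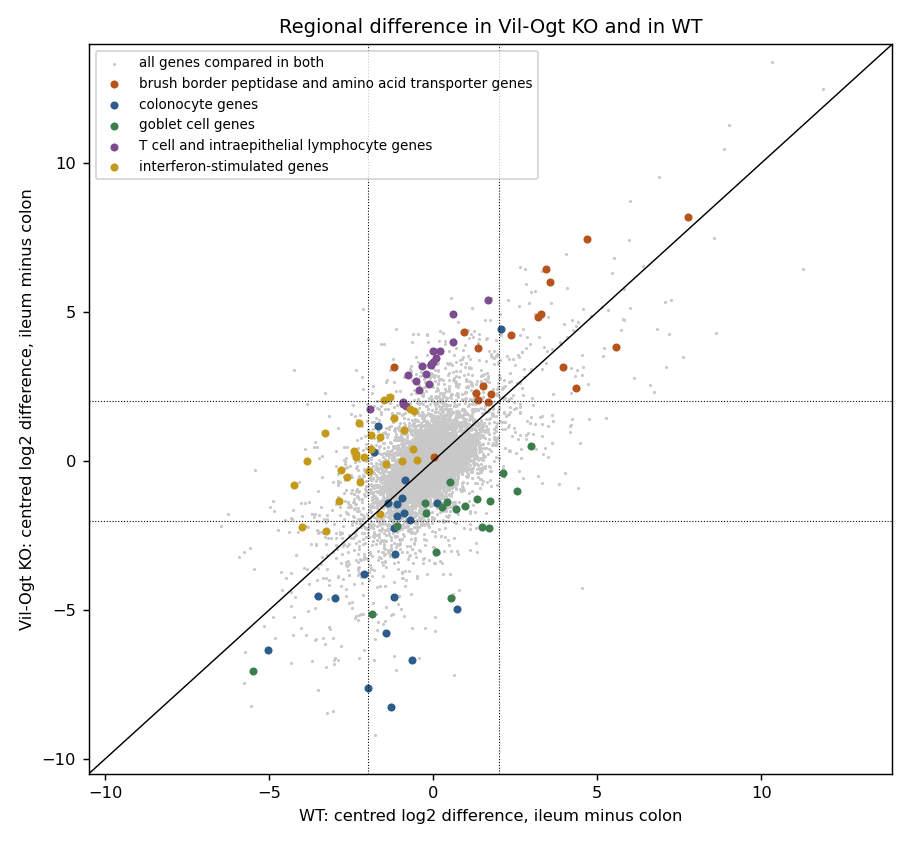
Centred log2 difference, ileum minus colon, in Vil-Ogt KO (vertical) against that in WT (horizontal), with members of 5 lists coloured, the diagonal of equal difference and dotted lines at 4-fold. Lymphocyte genes stand above the diagonal near 0 in WT, most interferon-stimulated genes above it on the WT colon side, and most goblet cell and colonocyte genes below it.

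The difference between genotypes was over 4-fold for 659 of 11839 genes, 401 with a more ileal and 258 with a more colonic value in Vil-Ogt KO. Among the more ileal, Upp1, uridine phosphorylase, had 671 FPKM in Vil-Ogt KO ileum and 16.6 FPKM in Vil-Ogt KO colon (5.46), against 55.3 FPKM in WT ileum and 39.9 FPKM in WT colon (0.55). Slfn2, a schlafen gene of lymphoid cells, had 12.7 and 0.901 FPKM in Vil-Ogt KO ileum and colon (3.94), and 1.99 and 6.32 FPKM in WT ileum and colon (-1.59). The P450 gene Cyp4v3 was at 4.23 in Vil-Ogt KO and -0.18 in WT. Of the more colonic, 4 of the 10 named (Aqp8, Ces1g, Slc37a2 and Car2) were colonocyte genes of the list above, and Cbs, cystathionine beta-synthase, had 0.178 FPKM in Vil-Ogt KO ileum and 18.3 FPKM in Vil-Ogt KO colon (-6.56), and 11.6 and 27.9 FPKM in WT ileum and colon (-1.19).

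**Figure D5:**
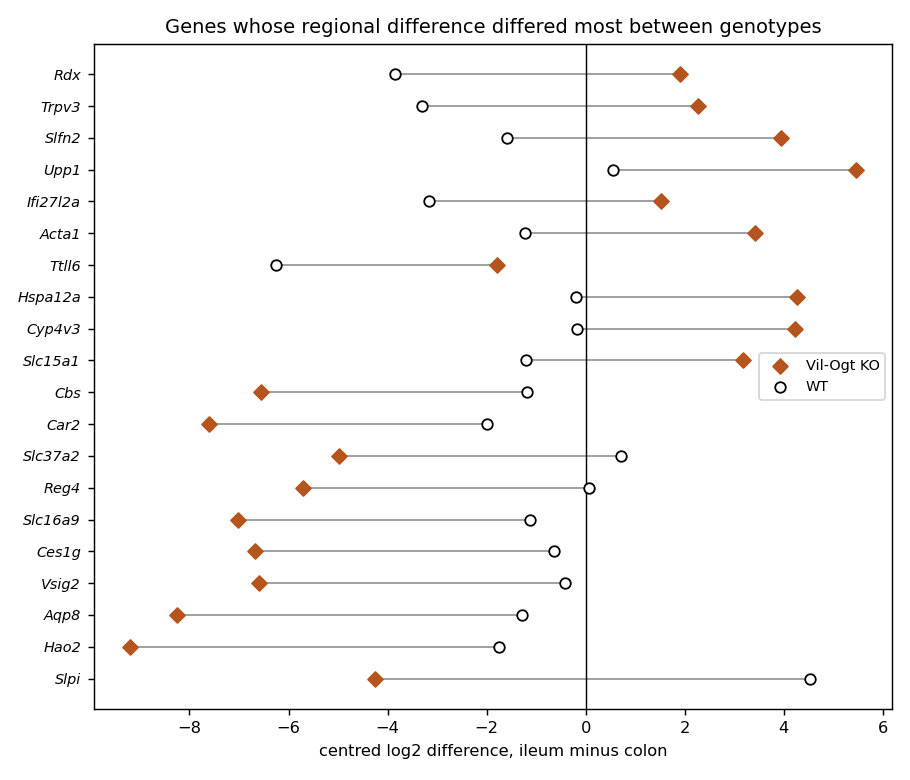
The 10 named genes with the largest difference between genotypes in each direction, with the centred log2 difference, ileum minus colon, in Vil-Ogt KO (diamond) and in WT (open circle). Slpi changes side, with -4.25 in Vil-Ogt KO and 4.53 in WT, while Hao2, Aqp8 and Car2 stay on the colonic side in both.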

How the data were processed

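RNA of IECs was sequenced by the authors on an Illumina instrument, and the submitters' notes name TopHat 1.0.0, Bowtie, Cufflinks and the build mm10. The deposited tables, 1 per tissue, hold a log2 FPKM for WT and for Vil-Ogt KO at each locus, with 0 FPKM listed by the authors at -10, and list only loci with a usable test. Their log2 ratio, q-value and significance columns, which give the authors' own comparison of genotypes, were not used. The value columns are headed control and comparison, taken as WT and Vil-Ogt KO.

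Loci without a name (3505 in ileum, 4815 in colon) and 1 emptied line per table were left out, and of repeated names the row with the highest mean FPKM was kept. Genes listed at 0 were not compared (7 in Vil-Ogt KO ileum, 0 in Vil-Ogt KO colon, 12 in WT ileum, 8 in WT colon). Neighbouring genes that the authors merged into 1 locus carry a joint name and 1 value. The median difference subtracted was -0.12 in Vil-Ogt KO and -0.08 in WT. A gene was counted past a centred log2 difference of 2 (4-fold), with no pseudocount. No test was made, as the tables give 1 value per genotype and were normalized separately. The 36 gene lists, the members and the comparisons were chosen with earlier results of these data known. Genes named are the 15 largest differences each way (mean of at least 1 FPKM, without numbered genes and small RNAs), as many as 5 members of a list (all of a short one), the 10 largest differences between genotypes each way, genes listed at 0 in 1 tissue, list members in 1 table only, genes over 4-fold apart in opposite directions, and Ogt; other list members and Abcg5, Abcg8 and Slc3a1, whose promoters are shown or paired, were chosen after their values were seen. Some genes are not reported here. Alternatives were a pseudocount of 1, filters on level, other centrings, other handling of repeated names, other folds and, chosen after seeing the data, loci with the same coordinates in both tables. Centring and counting were tested on simulated tables. All steps ran in Python 3.11.15. Tables were handled with pandas 2.3.3 and NumPy 2.4.6, correlations were taken with SciPy 1.17.1, and figures were drawn with matplotlib 3.10.9.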

Additional observations from a re-analysis of the deposited data

Results flagged for a closer look

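Of 11839 genes compared in both genotypes, 7 were over 4-fold apart between the tissues in opposite directions in Vil-Ogt KO and WT. Each rests on 1 value per genotype and tissue, and none of the differences between genotypes was tested.

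Slpi, a secreted inhibitor of neutrophil proteases, was the one that was colonic in Vil-Ogt KO, with 6.19 FPKM in Vil-Ogt KO ileum and 128 FPKM in Vil-Ogt KO colon, and 29.9 FPKM in WT ileum and 1.37 FPKM in WT colon. Its regional difference in Vil-Ogt KO minus that in WT was -8.78 on the log2 scale. Trpv3, a cation channel gene, had a difference between genotypes of 5.58, with 3.73 and 0.841 FPKM in Vil-Ogt KO ileum and colon, and 0.451 and 4.72 FPKM in WT ileum and colon. Bach2, a transcription factor of lymphocytes, had one of 4.99 at levels of at most 1.28 FPKM. The other 4 were short or numbered loci or loci that contain one. The joint locus of Dgcr8, a partner in microRNA processing, and Mir1306 was at 7.24, with 190 FPKM in Vil-Ogt KO ileum and 6.06 FPKM in Vil-Ogt KO colon, and 6.82 and 32.0 FPKM in WT ileum and colon. The locus of Mir23a, Mir24-2 and Mir27a was at 7.28, Gm5431 at 5.40 and Mir1199 at 4.56.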

How the results depend on the processing

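With log2(FPKM + 1), the counts over 4-fold were 272 in Vil-Ogt KO ileum, 246 in Vil-Ogt KO colon, 121 in WT ileum and 156 in WT colon. With a mean of at least 10 FPKM, they were 200, 181, 83 and 110 in the same order, and with loci of the same coordinates in both tables, 5333 in all, 198, 209, 84 and 168. At a fold of 2 they were 1100, 1407, 737 and 1294, and at a fold of 8 they were 202, 226, 100 and 125. Centring on ribosomal protein genes subtracted 0.32 in WT, in place of -0.08, and gave 587 genes over 4-fold higher in WT colon, so that 20.6% of the WT genes past the mark were ileal, against 36.3% with the median of all genes; the split in Vil-Ogt KO stayed at 46.8%. Other alternatives kept the counts within 1.5 times, and the interquartile ranges did not move past that limit. No list median past 4-fold in Vil-Ogt KO changed sign. With log2(FPKM + 1), the median of the T cell and intraepithelial lymphocyte list was 1.65, under the 4-fold mark, and with loci of the same coordinates that of the colonocyte list was -1.41. Medians under the mark that passed it were, with loci of the same coordinates, those of the goblet cell list (-3.05) and the retinoid and vitamin D list (-2.10), with a mean of at least 10 FPKM that of the aquaporin list (-2.11, against 0.60), and with a mean of at least 1 FPKM that of the myeloid list (2.13). The Reg3 median, 2.08, was 1.81 with log2(FPKM + 1) and 1.96 without centring or centred on genes of at least 10 FPKM. The median of Paneth cell genes, the highest of the lists, ranked below that of MHC class II genes with log2(FPKM + 1) (3.90 against 4.90) and with names found once (5.34 against 5.51), and below that of the fatty acid-binding protein list when a mean of 10 FPKM or more was required (5.24 against 5.67). The mucin median, the lowest, ranked above that of colonocyte genes with log2(FPKM + 1) (-2.06 against -2.27). Of 155 named genes past the mark, 128 passed it with log2(FPKM + 1) and none changed sign. Leaving out libraries was not run, since the tables give 1 value per genotype. No paired analysis was possible because the tables carry no replicate columns. The number of libraries and their depth cannot be weighed from these values.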

Other observations

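Red cell genes were higher in Vil-Ogt KO than in WT and differed little between the Vil-Ogt KO tissues. Over 3 such genes the summed level was 48.7 FPKM in Vil-Ogt KO ileum and 64.5 FPKM in Vil-Ogt KO colon, against 1.29 FPKM in WT ileum and 6.30 FPKM in WT colon. The joint locus of Hba-a1 and Hba-a2, the alpha-globin genes, had 31.8 FPKM in Vil-Ogt KO ileum and 42.2 FPKM in Vil-Ogt KO colon (-0.29), against 0.889 FPKM in WT ileum and 3.94 FPKM in WT colon (-2.07). Of 6 stromal, endothelial and muscle genes, none was over 4-fold apart between the tissues in Vil-Ogt KO and 3 were in WT, all toward ileum. Over all genes 3.71% passed the mark toward Vil-Ogt KO ileum and 4.22% toward Vil-Ogt KO colon, so 6 genes are too few to set against these shares. The summed level of the 6 was 24.9 FPKM in Vil-Ogt KO ileum and 18.4 FPKM in Vil-Ogt KO colon, against 43.4 FPKM in WT ileum and 12.9 FPKM in WT colon. Another 4 members had rows for ileum only and 1 for colon only, and they are not in these sums. Among the 3 higher in WT ileum, decorin, Dcn, had 6.87 FPKM in Vil-Ogt KO ileum and 3.20 FPKM in Vil-Ogt KO colon (1.22), and 20.8 FPKM in WT ileum and 1.19 FPKM in WT colon (4.21). The calprotectin subunit gene S100a8 had 10.3 FPKM in Vil-Ogt KO ileum and 4.76 FPKM in Vil-Ogt KO colon (1.23), against 0.166 FPKM in WT ileum, and was listed at 0 in WT colon.

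Gasdermin genes were uneven as well. Dfna5, which encodes gasdermin E, had 133 FPKM in Vil-Ogt KO ileum and 17.0 FPKM in Vil-Ogt KO colon (3.09), and 26.9 FPKM in WT ileum and 3.58 FPKM in WT colon (2.99). Gsdmd, the pore-forming protein of pyroptosis, was at 1.02 in Vil-Ogt KO and -1.01 in WT, short of the mark in both. The anion exchanger gene Slc26a6 was ileal in both genotypes, with 39.4 FPKM in Vil-Ogt KO ileum and 0.543 FPKM in Vil-Ogt KO colon (6.30), and 20.5 FPKM in WT ileum and 0.5 FPKM in WT colon (5.44).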
